A study of Arabidopsis thaliana with 12 samples.

Results

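The light response of rb10 seedlings was read from 6 of the 12 arrays of the study, 3 from seedlings kept in darkness and 3 from seedlings moved into light. The plants were Arabidopsis thaliana of the ecotype Col-0, and each array held RNA from a pool of whole seedlings. Seedlings of rb10 and of the wild type (WT) grew for 5 days in the dark on MS-based medium that held no sucrose, and were 5 days old when the light began. The light groups then spent 1 h in continuous white light of 120 µmol per square metre per second, and the dark groups did not. The labels call the 3 arrays of each of the 4 groups biological replicates. They do not say what rb10 carries. The study is known to concern TOR, and its rb10 line to be mutated in RAPTOR1B; the kind of allele is not given in the sources used here. For each probe set the log2 signal of the rb10 dark arrays was subtracted from that of the rb10 light arrays. A gene could be paired with 17481 of 38408 probe sets, and 16722 of these carry a single gene and are the ones named here. The 6 WT arrays entered as the comparison for where the response differed.

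A seedling that grows in darkness stretches its hypocotyl, keeps its cotyledons folded and lives on the reserves of the seed. PIF transcription factors hold this program in place, partly through auxin-linked growth genes, and light ends it when photoreceptors remove the PIFs and let HY5 and its relative HYH act. TOR is a kinase that ties growth to nutrients, and RAPTOR is the partner protein that brings it to its substrates. Seed oil and protein feed the etiolated seedling until photosynthesis starts, so the genes of reserve use, starvation and growth are read here beside those of greening.

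The array labelled rb10 dark replicate 3 stood apart from the other two of its group, and each result was computed with it and without it. RAPTOR1 (AT3G08850, RAPTOR1B) read 11.06, 11.08 and 11.60 on the 3 rb10 dark arrays and 10.90, 10.89 and 11.13 on the rb10 light arrays. The WT arrays read 11.58 to 11.84, so the array labelled replicate 3 lay with WT for this gene. On that array 958 probe sets lay more than 1 in log2 from the mean of the other two of its group, against 358 and 421 for rb10 dark replicates 1 and 2 and 192 to 264 on each of the other 9 arrays. RAPTOR2 (AT5G01770, RAPTOR1A) and RAPTOR1 did not pass the test for light in rb10, with differences of 0.38 (SE 0.13, adjusted p = 0.123) and -0.27 (SE 0.15, adjusted p = 0.349). The 3 measured reference genes did not pass either, and lay at -0.19 (AT2G28390), -0.02 (PEX4) and 0.11 (AT4G34270). The median of each array over all 38408 probe sets lay between 6.72 and 6.91. Array signal gives no count of molecules, so precision is limited by the number of arrays.

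After 1 h of light 598 probe sets rose (3.42%) and 656 fell (3.75%) in rb10, together 7.17% of the 17481 tested, by a limma fit over all 12 arrays at a Benjamini-Hochberg adjusted p under 0.05. Without the doubted array, rb10 dark replicate 3, they were 555 (3.17%) and 553 (3.16%), together 6.34%. Both fits called 922 probe sets in the same direction (5.27%), 468 up and 454 down. Another 332 passed only with all arrays and 186 only without that one. Without rb10 light replicate 2 the fit called 408 rises and 374 falls, 782 in all, and without rb10 light replicate 3 it called 453 and 408. Large changes were mostly rises. With all arrays 280 rises and 204 falls exceeded 1 in log2, and 56 rises and 27 falls exceeded 2. Without that array these numbers were 274 and 186, and 55 and 28. The 3 light values lay outside the range of the 3 dark values in 24.5% of all probe sets tested. The median difference over all probe sets was -0.03 with all arrays and -0.02 without that one. Changes below are log2 signal in light minus dark with the standard error (SE) of the fit and n = 3 arrays a group, and a gene is called where its adjusted p is under 0.05. Pairing succeeded for 17.1% of protein-coding genes that have their own symbol and for 86.3% of those that have a locus code alone. Many well-known light genes are therefore among those not analysed here, and most loci with the largest changes have no annotated role in the table used. Gene families below were gathered by symbol and synonym, so members without such a name can be missing from their counts.

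**Figure D1:**
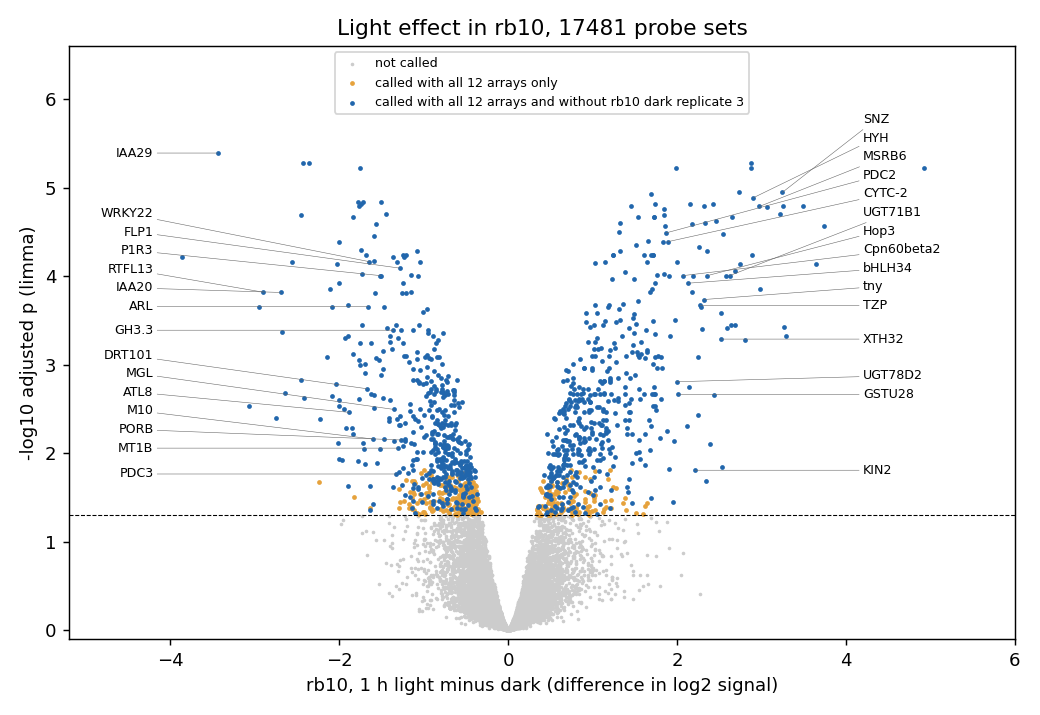
Difference in log2 signal between rb10 light and rb10 dark (x axis) against -log10 of the limma adjusted p (y axis) for each of the 17481 probe sets. Blue points passed with all 12 arrays and without the array labelled rb10 dark replicate 3, orange points passed with all arrays only, the dashed line is an adjusted p of 0.05, and labels mark the 15 largest rises and 15 largest falls that carry a symbol; the rises reach further from 0 than the falls.

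The largest rise was that of AT3G56290, a locus with no role in the annotation used. It read 5.18, 4.95 and 5.54 on the dark arrays and 10.0 to 10.27 on the 3 light arrays. The groups were far apart, and the rise was 30.5-fold, or 4.93 in log2 (SE 0.28, adjusted p = 6.06e-06). AT4G29930 read 4.37, 5.18 and 3.73 in the dark and 7.98, 8.24 and 8.27 in light. It rose by 3.74 (SE 0.29, adjusted p = 2.68e-05), and by 3.39 without the array labelled replicate 3, which held its lowest dark value. AT5G48570, listed as ROF2 or FKBP65, encodes a prolyl isomerase of the FKBP family. Its values were 7.11, 6.62 and 5.92 in the dark and 10.64, 10.34 and 9.61 in light, a rise of 3.65 (SE 0.33, adjusted p = 7.37e-05). Here too that array was the lowest of the dark group, and the rise without it was 3.33. The next were AT5G12110 (3.50), AT2G19650 (3.29), AT2G46670 (3.26) and AT2G46420 (3.26). AT4G35660, AT1G14345 and AT3G53830 rose by 3.22, 3.07 and 2.98. AT2G46670 lay near the bottom of the scale in the dark, between 2.51 and 2.64, and read 5.48 to 6.32 in light. All 12 of the largest rises were called without the doubted array as well, which is a condition of their choice, and there they lay between 2.78 and 5.09.

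**Figure D2:**
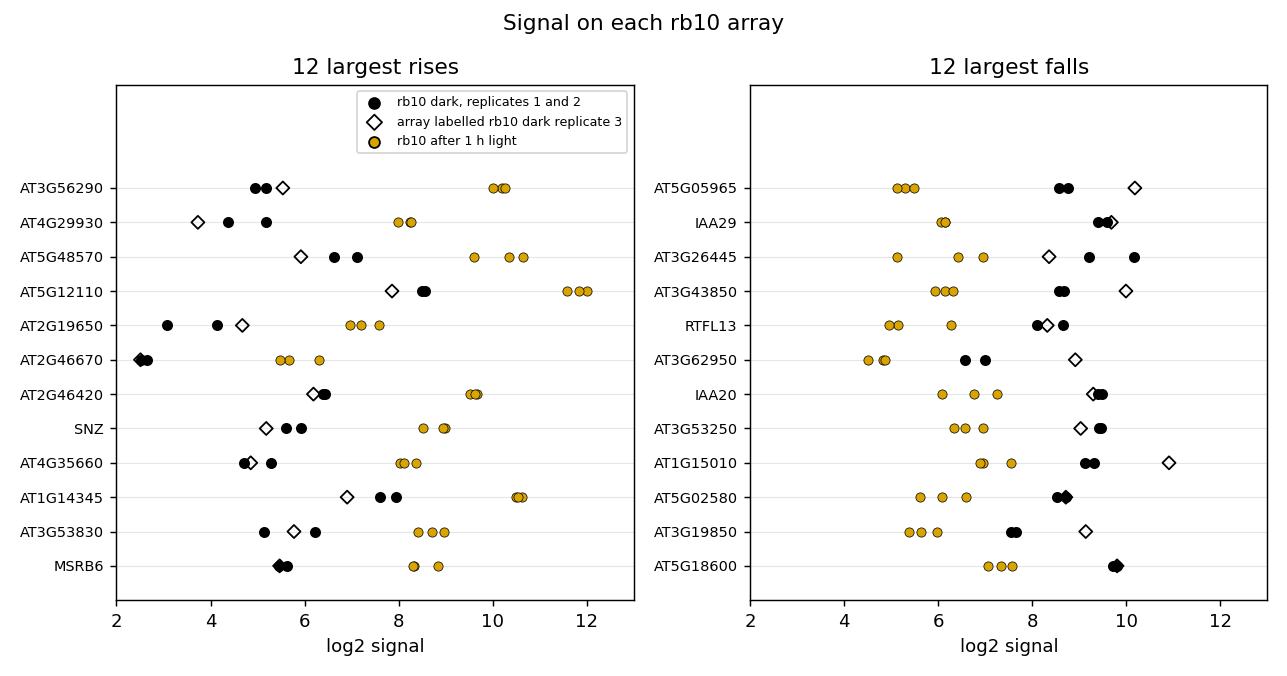
Log2 signal (x axis) on each of the 6 rb10 arrays for the 12 largest rises (left) and the 12 largest falls (right), 1 gene a line. Black circles are rb10 dark replicates 1 and 2, open diamonds the array labelled rb10 dark replicate 3 and gold circles the 3 light arrays; the light values do not overlap the dark values in any of the 24 genes, and for AT5G05965, AT3G62950 and AT1G15010 the diamond lies to the right of the other dark arrays.

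Regulators of light responses and of the clock were among the rises. HYH, the bZIP factor closest to HY5, read 6.15, 6.24 and 5.93 in the dark and 8.98, 9.09 and 8.97 in light. Its groups were far apart and tight, and it rose by 2.90 (SE 0.18, adjusted p = 1.3e-05), which is 7.49-fold. GI, a clock component that also acts in the timing of flowering, read 10.46, 10.43 and 10.57 in the dark and 11.70, 11.80 and 11.94 in light. It rose by 1.32 (SE 0.10, adjusted p = 2.49e-05) and was the only member of the clock list that could be measured. TZP, a zinc-knuckle protein of light signalling and hypocotyl growth, read 7.97 and 7.80 on dark replicates 1 and 2, 8.92 on the array labelled replicate 3, and 10.54, 10.41 and 10.57 in light. The dark group was split, so that the rise was 2.28 with all arrays (SE 0.24, adjusted p = 0.000214) and 2.62 without that one (SE 0.13, adjusted p = 1.45e-05). SNZ, an AP2-like repressor of flowering, had the largest rise of any gene with its own symbol. It read 5.60, 5.93 and 5.18 in the dark and 8.99, 8.94 and 8.52 in light, and rose by 3.25 (SE 0.20, adjusted p = 1.13e-05). Among the 10 measured basic helix-loop-helix factors caught by symbol or synonym bHLH34 rose, by 2.13 (SE 0.21, adjusted p = 0.00012). Of the same 10, bHLH121 was called down with all arrays (-0.44, adjusted p = 0.0268) but not without the doubted one (-0.35, adjusted p = 0.0652). The shares of all probe sets tested that rose and fell were 3.42% and 3.75% with all arrays, and 3.17% and 3.16% without the doubted one. Factors of this family that no symbol or synonym identifies were not counted, and can be among the loci named by code. PIF7, a PIF factor of the shade response, was at 0.65 and was not called (adjusted p = 0.0991). The AP2 factor TINY (tny) rose by 2.32 (SE 0.24, adjusted p = 0.000184). FHL, which carries phytochrome A into the nucleus together with FHY1, read 9.97 to 10.03 in the dark and 9.11 to 9.39 in light, and fell by 0.78 (SE 0.12, adjusted p = 0.00229).

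The few measured genes promoted by PIFs and shade mostly fell. Of 26 genes in that list 4 were measured, of which 3 fell and none rose. Their median was -0.76, against -0.03 over all probe sets tested, of which 3.75% fell. The 3 were IAA29, HAT2 and FHL, and YUC2, an auxin synthesis enzyme, was at -0.16. IAA29, an Aux/IAA repressor of auxin responses, read 9.40, 9.58 and 9.68 in the dark and 6.15, 6.06 and 6.14 in light. Light and dark values were more than 3 units apart on every array, and IAA29 fell by 3.44 (SE 0.15, adjusted p = 4.07e-06), further than any gene named here but AT5G05965. HAT2, a homeodomain factor of auxin and shade responses, read 10.83, 10.88 and 10.53 in the dark and 10.02, 10.04 and 9.91 in light, and fell by 0.75 (SE 0.15, adjusted p = 0.0096). These groups were closer, with the array labelled replicate 3 the lowest of the dark group.

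Auxin-linked genes were among the falls. Of 32 Aux/IAA genes 8 were measured, of which 3 fell and none rose (median -0.25), 2 of them also without the array labelled replicate 3. Over all probe sets tested 3.75% fell with all arrays and 3.16% without that one. IAA20 read 9.39, 9.47 and 9.29 in the dark and 7.25, 6.75 and 6.09 in light. The light arrays varied among themselves by more than 1 unit but all lay more than 2 below the dark arrays, and the fall was 2.69 (SE 0.27, adjusted p = 0.000153). IAA34 was called with all arrays (-1.08, adjusted p = 0.0469) and not without the doubted one (-0.86, adjusted p = 0.144). The other 5, IAA15, IAA18, IAA30, IAA31 and IAA33, lay between -0.29 and 0.32 and were not called. Of 80 SAUR genes, small auxin-induced genes of cell expansion, 5 were measured, of which 2 fell with all arrays and 3 without the doubted one. All 5 differences were below 0 with all arrays (median -0.97), as were 9462 of the 17481 over all probe sets tested. SAUR57 (AT3G53250) read 9.45, 9.43 and 9.03 in the dark and 6.95, 6.57 and 6.34 in light. The groups did not come near each other, and it fell by 2.68 (SE 0.31, adjusted p = 0.000432). SAUR10 (AT2G18010) fell by 2.01 (SE 0.32, adjusted p = 0.00294). AT1G19840 was at -0.45 with all arrays (adjusted p = 0.64) and at -1.09 without the doubted one (adjusted p = 0.0179). Of 6 measured GH3 enzymes, which join auxin or jasmonate to amino acids, GH3.3 fell by 1.36 (SE 0.16, adjusted p = 0.000408). WES1 (GH3.5) was called with all arrays only (-0.42, adjusted p = 0.0391, and -0.36, adjusted p = 0.107), and the other 4 were not called. ARL (ARGOS-like), which promotes cell expansion in organs, read 11.51, 11.35 and 11.15 in the dark and 9.83, 9.27 and 9.95 in light. All light arrays were lower by more than 1 unit, and the fall was 1.65 (SE 0.18, adjusted p = 0.00022).

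Among 34 measured expansins and xyloglucan-modifying enzymes, which loosen or remodel the cell wall, 2 rose and 4 fell with all arrays, where 3.42% of all probe sets tested rose and 3.75% fell. Without the doubted array 2 rose and 5 fell, against 3.17% and 3.16%. The list medians were 0.09 and 0.04. XTH32, which cuts and joins xyloglucan, read 5.23, 5.39 and 4.31 in the dark and 7.16, 7.76 and 7.56 in light. The array labelled replicate 3 was the lowest, and the rise was 2.52 (SE 0.30, adjusted p = 0.000514) with it and 2.18 without it. The expansin EXPA4 read 9.52, 9.50 and 9.86 in the dark and 8.70, 8.65 and 8.64 in light, and fell by 0.96 (SE 0.12, adjusted p = 0.000777). The expansin-like gene EXLA1 fell by 0.65 (SE 0.10, adjusted p = 0.00284). EXPA9 fell by 0.88 (adjusted p = 0.00694). EXPA8 and EXPA15 were called with all arrays only, at -0.77 and 0.97, and lay at -0.56 (adjusted p = 0.0891) and 0.79 (adjusted p = 0.0606) without the doubted one. Among 4 pectin methylesterases PME61 rose by 1.12 (SE 0.18, adjusted p = 0.00329). RTFL13, of the DEVIL family of small peptides that shape organs when overproduced, read 8.09, 8.65 and 8.32 in the dark and 5.14, 4.94 and 6.27 in light. Light replicate 3 was higher than the other light arrays, and the fall was 2.90 (SE 0.29, adjusted p = 0.000152).

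**Figure D3:**
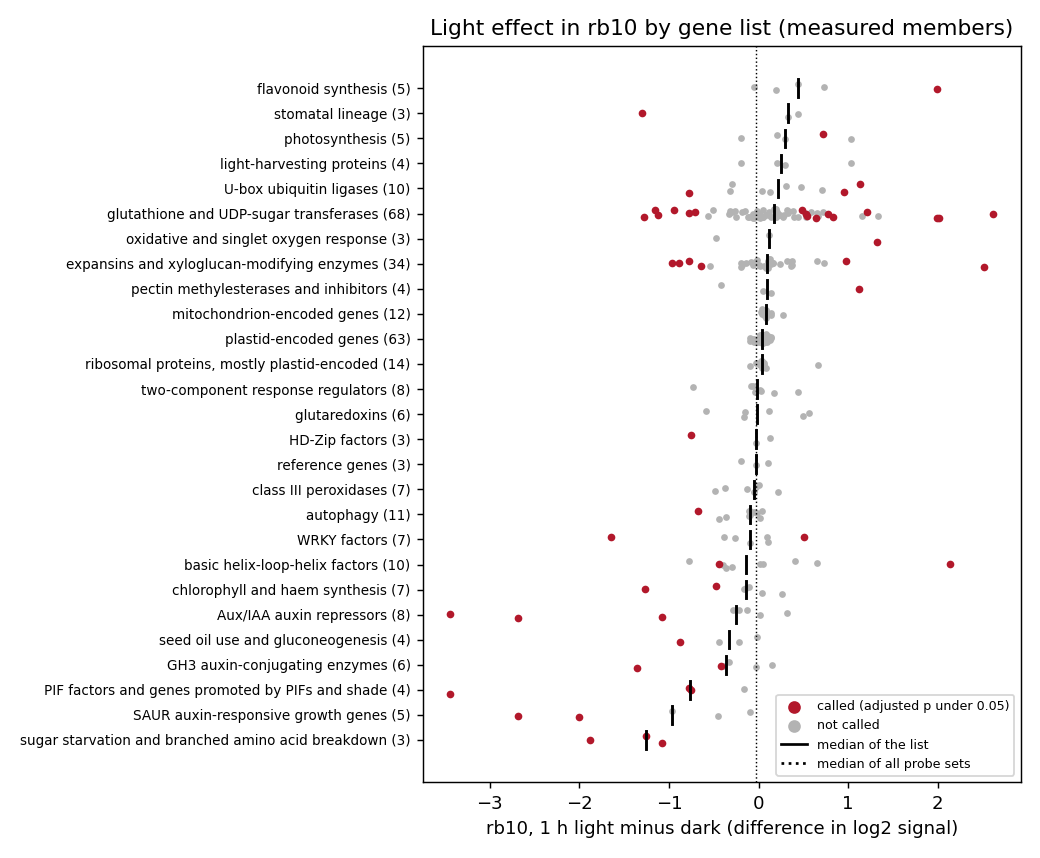
Light effect in rb10 (x axis, difference in log2 signal, light minus dark, all 12 arrays in the fit) of each measured member of the gene lists with at least 3 such members, with their number in parentheses. Red points passed the test, grey points did not, black bars are list medians and the dotted line is the median of all probe sets. The 3 measured members of the sugar starvation list, of 19, lie below -1, while the plastid-encoded genes stay close to 0.

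The few measured genes of sugar starvation and amino acid breakdown fell. Of 19 genes in the list 3 were measured, and all 3 were called down, with and without the doubted array, with medians of -1.25 and -1.28. Over all probe sets tested 3.75% fell with all arrays and 3.16% without that one. MCCB, a subunit of the enzyme that degrades leucine in mitochondria, read 12.49, 12.42 and 12.79 in the dark and 11.71, 11.51 and 11.23 in light. The light arrays were all lower, and it fell by 1.08 (SE 0.14, adjusted p = 0.00071). EXO, a brassinosteroid-induced gene, read 9.27, 9.26 and 9.17 in the dark and 8.05, 8.12 and 7.79 in light. It fell by 1.25 (SE 0.11, adjusted p = 5.7e-05) and its groups did not overlap. The RING ubiquitin ligase gene ATL8 read 6.80, 7.06 and 8.18 in the dark and 5.38, 5.32 and 5.70 in light. The array labelled replicate 3 was more than 1 unit above the other dark arrays, and ATL8 fell by 1.88 with it (SE 0.31, adjusted p = 0.00345) and fell by 1.47 without it (SE 0.20, adjusted p = 0.00191). MGL, a methionine gamma-lyase that breaks down methionine, fell by 1.35 (SE 0.22, adjusted p = 0.0032) and by 1.06 without that array, which again was the highest of the dark group (12.17 against 11.23 and 11.34).

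Of the 4 measured genes of seed oil use and gluconeogenesis 1 fell and none rose (median -0.33 with all arrays and -0.18 without the doubted one). Among all probe sets tested 3.75% fell with all arrays and 3.16% without that one. The called gene was PPDK, pyruvate orthophosphate dikinase, which lets pyruvate enter sugar synthesis. It read 11.57, 11.49 and 11.84 in the dark and 10.79, 10.67 and 10.81 in light, and fell by 0.88 (SE 0.11, adjusted p = 0.000672). Its light values were close together and below every dark value. SDP1, the lipase that starts the use of seed oil, was at -0.44 (adjusted p = 0.0795), ICL, isocitrate lyase of the glyoxylate cycle, at -0.22 and AIM1, of fatty acid beta-oxidation, at -0.02. Of 11 autophagy genes ATG8E fell by 0.68 (SE 0.16, adjusted p = 0.0247) and by 0.50 without the doubted array (adjusted p = 0.05), and 9 of the 11 differences were below 0 with all arrays (median -0.09, and -0.01 without the doubted array). In energy metabolism CYTC-2, a cytochrome c of the respiratory chain, read 9.60, 9.79 and 9.43 in the dark and 11.51, 11.55 and 11.44 in light, and rose by 1.89 (SE 0.15, adjusted p = 4.09e-05). The pyruvate decarboxylases of ethanol fermentation went in opposite directions. PDC2 rose by 1.87 (SE 0.15, adjusted p = 3.25e-05) and PDC3 fell by 1.32 (SE 0.28, adjusted p = 0.0171). The calls of ATG8E and PDC3 were lost without rb10 light replicate 2, and also, for ATG8E, without rb10 light replicate 3 and, for PDC3, without rb10 dark replicate 2 (adjusted p up to 0.0993 and 0.0702).

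Greening genes were measured in small number. Of 5 photosynthesis genes 1 rose with all arrays and 2 without the doubted one (medians 0.30 and 0.32), and of 7 genes of chlorophyll and haem synthesis 2 fell with all arrays and 1 without it, where 7.17% and 6.34% of all probe sets tested were called. RCA, the activase of Rubisco, read 9.79, 10.13 and 9.87 in the dark and 10.69, 10.68 and 10.57 in light, and rose by 0.72 (SE 0.11, adjusted p = 0.00247). LHB1B2, a light-harvesting protein of photosystem II, read 9.40, 10.23 and 11.17 on the 3 dark arrays and 11.07, 11.55 and 11.27 in light. The array labelled replicate 3 lay within the light range, and the difference was 1.03 with all arrays (adjusted p = 0.12) and 1.48 without that one (adjusted p = 0.00758). The 3 LHCB4 genes, antenna proteins of photosystem II, lay between -0.19 and 0.30 and were not called. None of the chlorophyll and haem genes rose. PORB, the light-dependent protochlorophyllide reductase, read 11.52 and 11.48 on dark replicates 1 and 2, 10.60 on the array labelled replicate 3, and 10.15, 9.83 and 9.82 in light. It fell by 1.27 with all arrays (SE 0.23, adjusted p = 0.00708) and by 1.57 without that one (SE 0.16, adjusted p = 0.000381). CHLM, a methyltransferase of chlorophyll synthesis, was called with all arrays only (-0.47, adjusted p = 0.0363, and -0.37, adjusted p = 0.0958). The other 5 lay between -0.16 and 0.27. Of 63 plastid-encoded genes none was called (median 0.04, 52 above 0), and of 12 mitochondrion-encoded genes none was called (median 0.08), lists that were added after values had been seen. At an unadjusted p under 0.05 the limma fit gave 0 in either list as well. The family rule for cytosolic ribosomal proteins caught 14 genes, of which 13 are among these plastid genes, so it says nothing of the cytosolic ones. Cpn60beta2, a chaperonin subunit of the plastid, read 9.65, 9.40 and 9.10 in the dark and 11.63, 11.57 and 11.15 in light, and rose by 2.07 (SE 0.20, adjusted p = 9.87e-05). MSRB6, a methionine sulfoxide reductase that repairs oxidised protein, rose by 2.98 (SE 0.21, adjusted p = 1.63e-05) from 5.45 to 5.63 in the dark to 8.32 to 8.85 in light. Of 5 flavonoid genes the glucosyltransferase UGT78D2 rose, by 1.99 (SE 0.28, adjusted p = 0.00156), and DFR, of anthocyanin synthesis, was at -0.05.

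Several chaperone and stress genes were called up. Hop3, a co-chaperone that links HSP70 with HSP90, read 9.17, 9.36 and 8.53 in the dark and 11.74, 11.38 and 11.01 in light. It rose by 2.36 (SE 0.22, adjusted p = 9.87e-05), and by 2.11 without the doubted array, the lowest of the dark group. Fes1A, a nucleotide exchange factor of HSP70, read 6.41, 6.42 and 6.35 in the dark and 8.36, 7.53 and 7.79 in light, and rose by 1.5 (SE 0.21, adjusted p = 0.00132). The dark values were nearly equal, and the light values varied more. Hsp70-2, an HSP70 chaperone, rose by 1.03 (SE 0.13, adjusted p = 0.000807). ATHSP22.0, a small heat shock protein, read 4.18, 3.70 and 3.01 in the dark and 5.14, 5.17 and 4.78 in light. It was called with all arrays (1.40, SE 0.37, adjusted p = 0.0441) and not without the doubted one (1.09, adjusted p = 0.136). Of 3 measured genes linked to oxidative stress and singlet oxygen STZ, a zinc finger repressor of stress responses, rose by 1.32 (SE 0.14, adjusted p = 0.000233), from 8.15 to 8.28 in the dark to 9.34 to 9.62 in light. The share of all probe sets tested that rose was 3.42% with all arrays and 3.17% without the doubted one. AT3G28580, whose transcript is a common readout of singlet oxygen, was at -0.48 (adjusted p = 0.431), and EX1, needed for singlet oxygen signalling, at 0.12. KIN2, a cold-responsive gene with a near-identical neighbour, KIN1, from which its signal may not be separate, read 4.98, 4.3 and 6.42 in the dark and 7.30, 7.56 and 7.47 in light. It rose by 2.21 (SE 0.47, adjusted p = 0.0155) and by 2.80 without the doubted array (SE 0.35, adjusted p = 0.00106), and its call was lost without rb10 dark replicate 1 or without rb10 light replicate 2 or 3 (adjusted p up to 0.0593).

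Among 68 glutathione and UDP-sugar transferases, enzymes that attach glutathione or sugars to small molecules, 10 rose and 6 fell with all arrays, and 6 rose and 5 fell without the doubted one (medians 0.18 and 0.12). Over all probe sets tested 3.42% rose and 3.75% fell with all arrays, and 3.17% and 3.16% without the doubted one. The same shares stand beside the WRKY and U-box counts below. UGT71B1 read 6.55, 5.96 and 5.87 in the dark and 8.63, 9.08 and 8.55 in light, and rose by 2.62 (SE 0.25, adjusted p = 9.87e-05). GSTU28 rose by 2.01 (SE 0.30, adjusted p = 0.00216), although its dark replicate 2 was lower by more than 1 unit than the other two. UGT76C2, which glucosylates cytokinins, read 9.07, 9.13 and 9.43 in the dark and 8.11, 7.99 and 8.18 in light. It fell by 1.12 (SE 0.13, adjusted p = 0.000408), and GSTF3 fell by 0.95 (SE 0.11, adjusted p = 0.000408). Of 7 WRKY factors WRKY22, of immune and dark-induced senescence responses, read 10.26, 10.34 and 10.60 in the dark and 8.70, 9.06 and 8.51 in light, and fell by 1.64 (SE 0.15, adjusted p = 6.86e-05). WRKY6, linked to senescence and phosphate supply, rose by 0.51 (SE 0.11, adjusted p = 0.0207). Of 10 U-box ubiquitin ligases PUB39 and PUB19 rose, by 1.13 (adjusted p = 0.00151) and 0.96 (adjusted p = 0.0103), and PUB54 fell by 0.78 (adjusted p = 0.0131), with calls that stood without the doubted array. The calls of WRKY6 and PUB54 were lost without rb10 dark replicate 1 (adjusted p up to 0.0805 and 0.052 without single arrays), and that of WRKY6 also without rb10 dark replicate 2 or rb10 light replicates 2 or 3. The single measured NAC factor, NAC014, was called with all arrays only (-0.52, adjusted p = 0.0219, and -0.47, adjusted p = 0.0621), and the single ERF factor of the family rule, DREB2C, was at -0.25. Of the 6 glutaredoxins, 7 class III peroxidases and 8 two-component response regulators caught by symbol or synonym, none was called in either fit. At an unadjusted p under 0.05 the limma fit with all arrays gave 1 of these glutaredoxins and 0 of the others. Members of these families that no symbol or synonym identifies were not counted, and can be among the loci named here by code. The counts therefore do not describe the whole families. Among other genes with a symbol of their own, the late embryogenesis abundant protein gene M10 fell by 1.61 (SE 0.29, adjusted p = 0.0069), the metallothionein gene MT1B by 1.30 (SE 0.25, adjusted p = 0.00875), DRT101 by 1.67 (SE 0.25, adjusted p = 0.00187), P1R3 by 1.51 (SE 0.14, adjusted p = 9.87e-05) and FLP1, of the FPF1-like family, by 1.28 (SE 0.12, adjusted p = 8.11e-05).

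The largest falls were mostly of loci with no annotated role in the table used, and several of them depended in size on the array labelled replicate 3. AT5G05965 read 8.56, 8.75 and 10.18 in the dark and 5.30, 5.13 and 5.48 in light. It fell by 3.86 with all arrays (SE 0.34, adjusted p = 6.13e-05) and fell by 3.35 without that one (SE 0.16, adjusted p = 1.45e-05), so the largest fall rested partly on the high value of that array, which lay with the WT dark arrays (10.04 to 10.53). AT3G62950 read 6.56, 6.99 and 8.91 in the dark and 4.83, 4.50 and 4.88 in light, with differences of -2.75 with all arrays and -2.04 without that one. The differences with and without it were -2.65 and -2.08 for AT1G15010, -2.95 and -2.50 for AT3G43850, and -2.45 and -1.94 for AT3G19850. In these 5 genes the array labelled replicate 3 held the highest value of the dark group, by more than 1 unit. AT3G26445 went the other way, with dark values of 10.15, 9.20 and 8.36, light values of 5.12, 6.42 and 6.95, and differences of -3.07 with that array and -3.51 without it. For AT5G18600 and AT5G02580 the array made no such difference. AT5G18600 read 9.70, 9.79 and 9.80 in the dark and 7.58, 7.32 and 7.05 in light (-2.45, SE 0.18, adjusted p = 2.05e-05, and -2.43 without that array), and AT5G02580 was at -2.56 and -2.53.

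Markers of single cell types were read as a check on the makeup of the pools. The stomatal factors SPCH, MUTE and FMA (FAMA) had a summed signal, as log2 of the sum, with a median of 8.74 in rb10 dark and 8.44 in rb10 light, and the lowest dark array lay just above the highest light array. FAMA, which ends guard cell division, read 8.09, 7.97 and 8.06 in the dark and 7.37, 7.09 and 5.75 in light. It was called with all arrays (-1.30, SE 0.34, adjusted p = 0.0416) but not without the doubted one (-1.29, adjusted p = 0.0977). SPCH was at 0.44 and MUTE at 0.33, neither called. In WT SPCH fell by 0.93 (adjusted p = 0.0194), and its difference, rb10 minus WT, passed with all arrays (1.37, adjusted p = 0.0377) and not without the doubted one (1.2, adjusted p = 0.063). The root hair expansins EXPA7 and EXPA18 summed to 5.43 to 6.39 in the dark and 5.89 to 6.56 in light, with EXPA18 at 3.75 to 4.09 and 4.48 to 4.80, and neither was called. The photosynthesis genes, of green tissue, summed to 12.54 to 12.98 and 13.09 to 13.23. No marker of the seed storage or root endodermis lists was measured, and the part of these markers in the results was not tested. In pooled whole seedlings fewer cells of a type and less RNA per cell cannot be told apart.

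The response of rb10 was then set against that of WT, to ask where the 1 h of light acted differently in the mutant. The difference of the 2 light effects, rb10 minus WT, passed the test in 380 probe sets (2.17%), with 88 positive (0.503%) and 292 negative (1.67%). With the doubted array left out they were 394 (2.25%), 103 (0.589%) and 291 (1.66%). Leaving out other single arrays lowered the count, to 208 without WT light replicate 1, 232 without rb10 light replicate 2, 248 and 250 without WT dark replicates 2 and 1 and 250 without WT light replicate 3. With a single gene and in both fits there were 306, of which 68 were positive and 238 negative. A negative difference holds both genes that rose less in rb10 and genes that fell further. WT light against WT dark had 807 rises (4.62%) and 397 falls (2.27%), 6.89% in all. In rb10 falls outnumbered rises slightly with all arrays, and rises outnumbered falls without rb10 light replicate 2 or 3 and with the rb10 arrays fitted alone (336 and 244).

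Of 8 measured Aux/IAA genes 2, IAA29 and IAA20, had a negative difference that passed in both fits, as did ARL, while none of the SAUR, GH3 or HD-Zip genes measured had a difference that passed. With all arrays 0.503% of all probe sets tested had a positive and 1.67% a negative difference that passed. Without the doubted array these shares were 0.589% and 1.66%. IAA29 read 9.22, 9.13 and 9.56 in WT dark and 7.93, 7.54 and 7.42 in WT light, so that after light all WT arrays lay above all rb10 arrays (6.06 to 6.15). It fell by 1.67 in WT, and the difference was -1.77 (SE 0.22, adjusted p = 0.00285), or -1.71 without the doubted array (adjusted p = 0.00735). IAA20 read 8.90 to 9.17 in WT dark and 8.43 to 9.27 in WT light. It was not called in WT (-0.24, adjusted p = 0.71), and the difference was -2.45 (SE 0.38, adjusted p = 0.00915). ARL was at 0.31 in WT and fell by 1.65 in rb10 (difference -1.97, SE 0.25, adjusted p = 0.00302). In the dark the values of IAA29 and ARL overlapped between the genotypes and those of IAA20 were slightly higher in rb10, and the groups parted in light. SAUR57, SAUR10, HAT2 and GH3.3 were called down in WT as in rb10, and their differences did not pass, at 0.00, 0.07, 0.15 and -0.28 with SE of 0.44, 0.45, 0.21 and 0.22. Of the 34 expansins and xyloglucan-modifying enzymes none had a difference that passed with all arrays. Without the doubted array 2 positive and 2 negative ones did, where 0.589% and 1.66% of all probe sets tested had such differences. The positive ones were those of EXPA8 (1.23, adjusted p = 0.0233) and XTH33 (0.98, adjusted p = 0.0197). The negative ones were those of XTH18 (-1.39, adjusted p = 0.0101) and XTH19 (-1.33, adjusted p = 0.00572). These genes were named after their values were seen.

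WRKY22, FLP1, PPDK and MCCB had WT light values close to their WT dark values. WRKY22 read 10.57, 10.76 and 10.76 in WT dark and 10.94, 10.82 and 10.95 in WT light, and its difference was -1.85 (SE 0.21, adjusted p = 0.0019). FLP1 was at -0.09 in WT, with a difference of -1.19 (SE 0.17, adjusted p = 0.00523). PPDK was at -0.05 in WT, and its difference of -0.83 (SE 0.16, adjusted p = 0.0212) passed without the doubted array too (-0.72, adjusted p = 0.0239). The difference of MCCB passed with all arrays (-0.93, SE 0.19, adjusted p = 0.0338) and missed the threshold without that one (-0.82, adjusted p = 0.0517). EXO fell by 0.58 in WT, and its difference of -0.67 (SE 0.15) did not pass (adjusted p = 0.052). UGT76C2 was at -0.20 in WT and its difference was -0.92 (SE 0.18, adjusted p = 0.029). Left out singly, 5 arrays ended the call for PPDK, 10 for MCCB and 7 for UGT76C2, with rb10 light replicate 2 and WT light replicate 1 among them in each case (adjusted p up to 0.0634, 0.0881 and 0.081). Of the largest falls AT5G05965, AT1G15010, AT5G18600 and AT5G02580 fell further in rb10 than in WT, with differences of -3.19, -2.57, -2.08 and -1.71 that passed in both fits. Those of AT1G15010 and AT5G02580 were lost without 9 and 6 of the single arrays (adjusted p up to 0.109 and 0.0616), WT dark replicates 1 and 2 among them.

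**Figure D4:**
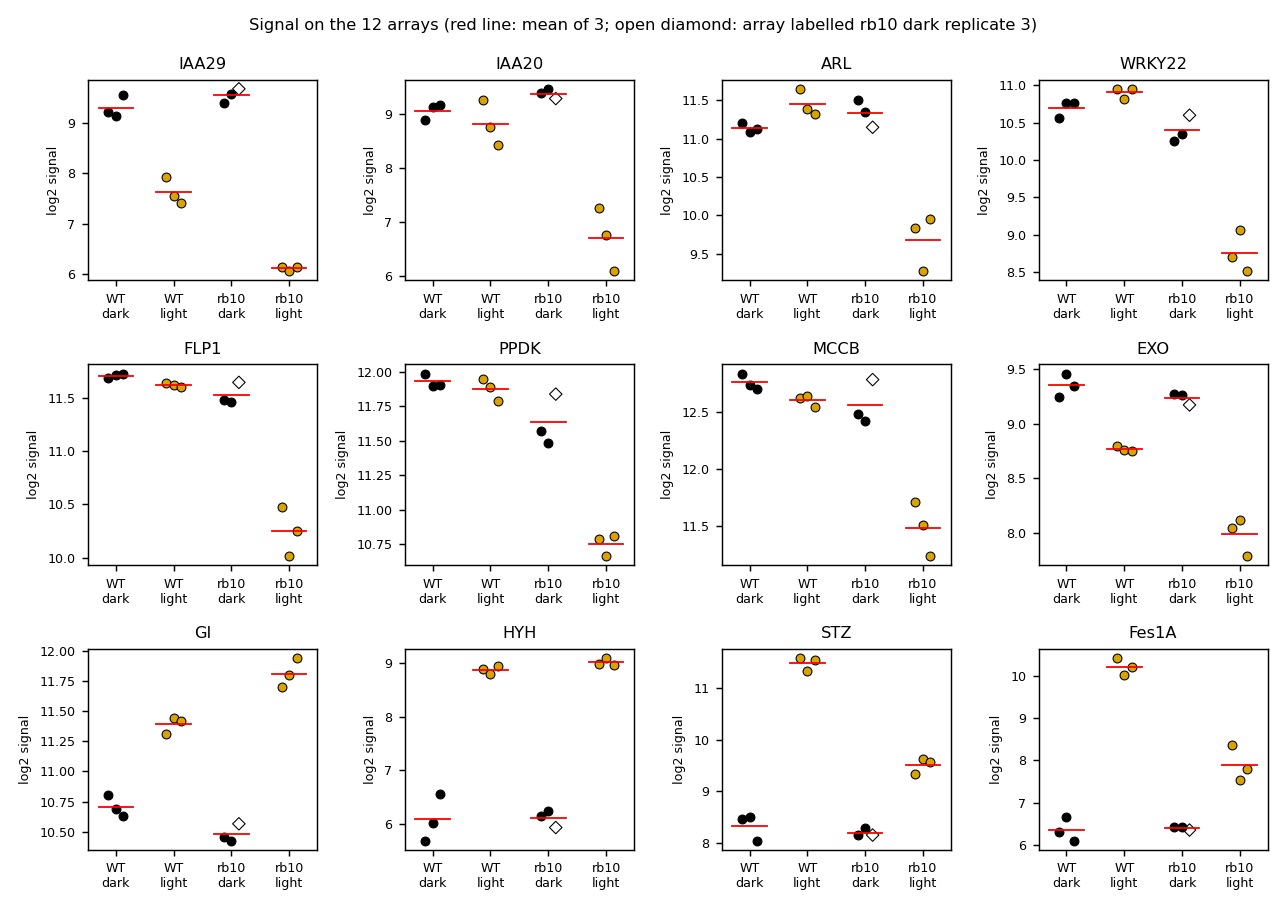
Log2 signal (y axis) on each of the 12 arrays for 12 genes, by genotype and light. Black circles are dark arrays, gold circles light arrays, open diamonds the array labelled rb10 dark replicate 3 and red lines means of 3; IAA29, IAA20, ARL, WRKY22, FLP1, PPDK and MCCB are lowest in rb10 light, HYH is high in both light groups, and STZ and Fes1A are highest in WT light.

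Of the chaperone and stress genes named above, STZ, Fes1A, Hsp70-2 and ATHSP22.0 had negative differences that passed in both fits, while those of Hop3, KIN2 and Cpn60beta2 did not pass. Fes1A and ATHSP22.0 were chosen for the size of that difference. STZ read 11.58, 11.33 and 11.55 in WT light against 9.34 to 9.62 in rb10 light, and its light effect differed by -1.83 (SE 0.20, adjusted p = 0.00181). Fes1A rose by 3.85 in WT and 1.5 in rb10 (difference -2.35, SE 0.29, adjusted p = 0.00292). Hsp70-2 rose by 2.59 and 1.03 (difference -1.56, SE 0.19, adjusted p = 0.00272). ATHSP22.0 read 9.38, 8.69 and 8.43 in WT light and 4.78 to 5.17 in rb10 light, and its difference was -4.00 (SE 0.52, adjusted p = 0.00361). The largest negative differences by locus were those of AT1G54050 (-5.18), AT1G52560 (-4.84), AT2G32200 (-4.79), AT1G53540 (-4.72) and AT1G59865 (-3.82). Of these AT1G54050 was called up in rb10 in both fits (1.74, SE 0.27, adjusted p = 0.0029), AT1G59865 with all arrays only (1.22, adjusted p = 0.0337), and the other 3 were not called. For Hop3 the rise was 3.19 in WT and 2.36 in rb10, and the difference did not pass (-0.83, SE 0.32, adjusted p = 0.287). ROF2 rose by 5.47 in WT and 3.65 in rb10, with a difference that passed only without the doubted array (-1.82, adjusted p = 0.0874, and -2.14, adjusted p = 0.0327).

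Among the genes chosen for the size of their negative differences were CML37, CML38, ABR1, ZAT7 and PUB54, so that their direction follows from the choice. CML37 and CML38, calmodulin-like calcium sensors, rose by 3.32 and 2.85 in WT and were not called in rb10 (0.46, adjusted p = 0.24, and -0.85, adjusted p = 0.234). Their differences were -2.86 (SE 0.29, adjusted p = 0.00105) and -3.70 (SE 0.52, adjusted p = 0.0055). CML37 read 7.25 to 7.87 in WT light and 4.33 to 4.52 in rb10 light, near the dark values of both genotypes. ABR1, an ERF factor that represses abscisic acid responses, and the zinc finger gene ZAT7 rose by 2.46 and 2.33 in WT and were at -0.24 and -0.21 in rb10. PUB54 went in opposite directions, up by 1.49 in WT and down by 0.78 in rb10 (difference -2.27, SE 0.23, adjusted p = 0.000968). WRKY6 rose by 1.26 in WT and 0.51 in rb10, a difference of -0.75 (adjusted p = 0.0401) that missed the threshold without the doubted array (-0.66, adjusted p = 0.0603) and without each of 9 others. Among the 10 U-box ligases 6 were called up in WT and 2 in rb10, against 4.62% and 3.42% of all probe sets tested. The difference itself passed only for PUB54 and PUB23 (-2.04, adjusted p = 0.00642), where 1.67% of all probe sets had a negative difference that passed. AT3G28580 rose by 2.52 in WT and its difference of -3.0 also passed (adjusted p = 0.0055).

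A smaller set rose further in rb10, or fell in WT and was not called in rb10. AT1G58460 read 4.16, 4.36 and 3.76 in rb10 dark and 7.17, 6.85 and 6.48 in rb10 light, while the WT arrays read 3.77 to 4.71 in either condition. Its difference was 2.91 (SE 0.35, adjusted p = 0.00272). AT4G29930 rose by 1.53 in WT and 3.74 in rb10 (difference 2.21, SE 0.41, adjusted p = 0.0194), and AT3G44020 was at -0.24 and 1.92 (difference 2.16, SE 0.32, adjusted p = 0.00735). The loci AT4G17670 and AT4G17680, which neighbour each other in the annotation, had differences of 2.18 and 2.40. AT4G17670 was called up in rb10 (2.55) and not called in WT (0.37), and AT4G17680 was called up in rb10 (1.05) and down in WT (-1.34). Its array labelled rb10 dark replicate 3 read 6.27 against 7.66 and 7.42 on the other two, and its rise was 0.63 without that array. Its rise missed the threshold without any 1 of 10 arrays (adjusted p up to 0.135). MYR2, a MYB-like gene, had the largest positive difference of the genes with a symbol. It read 7.35, 7.42 and 7.17 in rb10 dark and 8.84, 8.73 and 8.53 in rb10 light, and was at -0.38 in WT (difference 1.77, SE 0.27, adjusted p = 0.00778). GI rose by 0.68 in WT and 1.32 in rb10, and this difference of 0.64 (SE 0.14, adjusted p = 0.0454) was close to the threshold in both fits (adjusted p = 0.0435 without the doubted array) and was lost without any 1 of the other 11 arrays (adjusted p up to 0.124). CSLB03, a cellulose synthase-like gene, was at 0.01 in WT and rose by 1.27 in rb10 (difference 1.26, SE 0.24, adjusted p = 0.0213). PME61 and RXW8 had differences of 1.36 and 1.14. B70 and DRT100, a leucine-rich repeat gene linked to DNA damage tolerance, fell in WT by 1.49 and 1.54 and were not called in rb10 with all arrays. DRT100 was at -0.31 there, and at -0.55 without the doubted array (adjusted p = 0.0119). The differences of AT4G29930, CSLB03, PME61, RXW8 and DRT100 missed the threshold without 5, 7, 5, 8 and 8 of the single arrays, WT light replicates 1 and 3 among them in each case (adjusted p up to 0.0555, 0.06, 0.0607, 0.0955 and 0.0805).

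Several of the largest rises showed no difference that passed. AT3G56290 rose by 4.60 in WT and 4.93 in rb10 (difference 0.33, SE 0.40, adjusted p = 0.805). HYH read 8.80 to 8.94 in WT light and 8.97 to 9.09 in rb10 light, with a difference of 0.12 (SE 0.26, adjusted p = 0.909). SNZ and MSRB6 had differences of 1.02 (SE 0.28, adjusted p = 0.119) and 1.01 (SE 0.29, adjusted p = 0.137). CYTC-2, PDC2 and Cpn60beta2 rose by 2.25, 1.57 and 2.0 in WT, and their differences lay between -0.37 and 0.30. RTFL13 fell by 2.93 in WT and 2.90 in rb10 (difference 0.03, SE 0.41). A p that misses the threshold does not show that the effects were equal, and the SE gives the size that could have been missed.

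**Figure D5:**
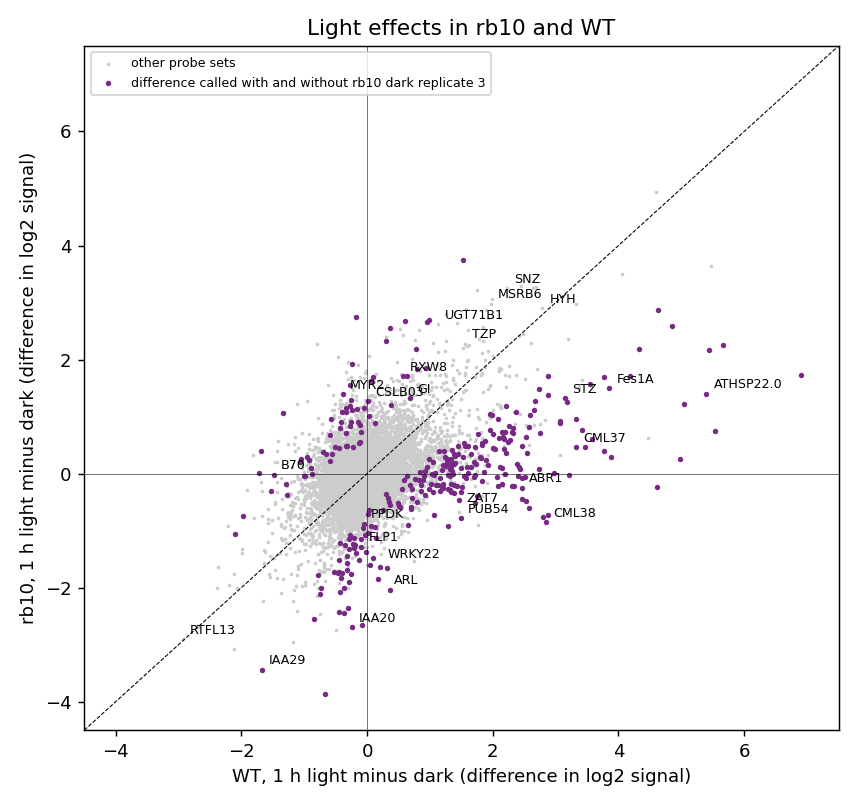
Light effect in rb10 (y axis) against light effect in WT (x axis), both as differences in log2 signal, light minus dark, for the 17481 probe sets. Purple points are those whose difference passed the test with and without the array labelled rb10 dark replicate 3, and the dashed line marks equal effects; purple points lie mostly below the line, as wide as AT1G54050 at 6.91 in WT and 1.74 in rb10.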

How the data were processed

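The authors deposited a log2 signal for each probe set of their Affymetrix Gene 1.0 ST arrays. Per the submitters' processing notes RMA and GCRMA were used, which remove background, scale the arrays to each other and reduce the probes of a set to 1 value. Which gave these values, and with what version or build, is not given in the sources used here. Background and scaling choices made there cannot be undone from the log2 values.

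Gene names came from a TAIR10.1 gene table, and none of its coordinates were used. Every probe set with a gene was tested, whatever its signal. For a gene with several probe sets in the lists, the one with the highest mean stood for it. One model with 4 group means was fitted over 12 arrays with limma 3.58.1 in R 4.3.3 (8 residual degrees of freedom, 2.79 from the prior), and again over 11 arrays with the array labelled rb10 dark replicate 3 left out. The p-values reflect how far these pools of seedlings varied. The script was tested on simulated data.

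The genes named were the 12 largest rises and 12 largest falls called in both fits with groups that did not overlap, up to 3 called members of each of 17 lists and 22 families (else, for a list, the member with the smallest p), the 6 largest differences between genotypes in each direction, RAPTOR1, RAPTOR2 and the reference genes. After values had been seen, the 15 largest rises and 15 largest falls with a symbol of their own and the 8 largest such differences in each direction were added, and other list members were chosen for naming then too. The comparison, lists and rules were chosen with earlier results of these data known. The lists of B-box, MYB, small heat shock, carotenoid, seed storage and root endodermis genes, as gathered, had no measured member. The B-box, MYB and small heat shock lists rested on symbols and synonyms. That rule missed genes that were measured, among them ATHSP22.0, a small heat shock protein gene, and MYR2, a MYB-like gene. Loci named here by code alone can belong to these families too, those with the largest negative differences included. Alternatives were a replicate block, the rb10 arrays alone, other scalings, a filter on low signal, every probe set, another prior and leaving out each array. Same-numbered dark and light arrays did not deviate together (correlations 0.01 to 0.06 in rb10 and -0.02 to 0.07 in WT), so the numbers were not read as pairs. Promoter sequences were not analysed here. Figures used matplotlib 3.10.9.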

Additional observations from a re-analysis of the deposited data

Results flagged for a closer look

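The light effects of the following genes differed between rb10 and WT by the limma test of the difference itself, with all arrays, at an adjusted p under 0.05. Values are differences in log2, rb10 minus WT. Among chaperone and stress genes they were -4.00 for ATHSP22.0, -2.35 for Fes1A, -1.56 for Hsp70-2, -1.83 for STZ, -2.86 for CML37, -3.70 for CML38, -2.54 for ZAT7, -2.71 for ABR1, -2.27 for PUB54 and -0.75 for WRKY6. By locus code they were -5.18 for AT1G54050, -4.84 for AT1G52560, -4.79 for AT2G32200, -4.72 for AT1G53540 and -3.82 for AT1G59865. Among genes that fell further in rb10 they were -1.77 for IAA29, -2.45 for IAA20, -1.97 for ARL, -1.85 for WRKY22, -1.19 for FLP1, -0.83 for PPDK, -0.93 for MCCB and -0.92 for UGT76C2. The loci AT5G05965, AT1G15010, AT5G18600 and AT5G02580 lay at -3.19, -2.57, -2.08 and -1.71.

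Positive differences were 2.91 for AT1G58460, 2.40 for AT4G17680, 2.21 for AT4G29930, 2.18 for AT4G17670, 2.16 for AT3G44020, 2.09 for AT1G76240 and 1.46 for AT4G35660. Genes with a symbol were MYR2 (1.77), B70 (1.47), PME61 (1.36), CSLB03 (1.26), DRT100 (1.22), ATL43 (1.16), RXW8 (1.14), UGT88A1 (0.66) and GI (0.64). Of these 43 genes 3, AT4G35660, MCCB and WRKY6, missed the threshold without the array labelled rb10 dark replicate 3. AT1G76240 and ATL43 were not called in rb10 and fell in WT, by 1.68 and 0.93. The difference of ATL43 was lost without 6 single arrays and that of AT4G35660 without 10 (adjusted p up to 0.0682 and 0.13). Of other list members named above, AT3G28580 (-3.0), PUB23 (-2.04) and SPCH (1.37) also had differences that passed with all arrays.

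Outside the probe sets with a gene, a fit of all 38408 called 1154 of the 20927 with no paired gene for light in rb10 (643 up and 511 down, 5.51%), against 5.75% of all 38408. What they measure is not known from the sources used here.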

How the results depend on the processing

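Of the counts for light in rb10 (1254), those with the rb10 arrays alone (580, and 583 less the array labelled rb10 dark replicate 3), with every probe set (2210), with a replicate block without that array (815) and without rb10 light replicate 2 (782) differed by over 1.5 times. The 815 and the 583 were chosen after seeing the data, and the smaller fits have fewer arrays. With all arrays the replicate block gave 1137 for rb10 and 306 for the difference of light effects (380). Leaving out each array in turn gave 782 to 1154 for rb10. For the difference it gave 208 (without WT light replicate 1) to 394, with 232 without rb10 light replicate 2, 248 and 250 without WT dark replicates 2 and 1, and 250 without WT light replicate 3; every probe set gave 597. The cause was not tested. Quantile normalization, equal array medians, the filter on low signal and another prior gave 1156 to 1617 for rb10.

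Of 87 named genes called for light in rb10, 8 lost the call without rb10 dark replicate 3 (AT1G59865, ATHSP22.0, CHLM, FMA, IAA34, NAC014, WES1 and bHLH121), 12 without rb10 light replicate 2 and 18 with the rb10 arrays alone. Of the 43 differences given above 28 passed without each array in turn. Those of GI and UGT88A1 were lost without any of the 11 arrays other than the doubted one. Only differences that were not called changed sign. For B70 (-0.02) the difference was -0.088 to 0.069 without single arrays and 0.012 with the rb10 arrays alone less the doubted one. For PEX4 (-0.02) it was -0.10 to 0.048 and 0.013. For AT1G52560 (-0.23) it was -0.67 to 0.29 without single arrays and 0.025 with the block less the doubted one. Signal near the bottom of the scale, as for ZAT7 and AT2G46670, understates fold changes.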
